A study of Mus musculus with 6 samples.

Results

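The promoters of genes that drive DNA replication and the cell cycle were examined in H3K27ac chromatin immunoprecipitation sequencing of O4AID ESCs, before and after removal of the transcription factor OCT4. The members were the protein-coding genes of the mouse annotation GENCODE vM21 whose symbols begin with Mcm, Orc, Cdc, Ccna to Ccne, Cdk, Cdkn, E2f, Gins, Pola, Pold, Pole or Rfc followed by the family's number or letter, and Pcna. The rule took 126 of 21951 protein-coding genes. Of these, 109 had at least 1 H3K27ac peak within 1 kb of an annotated transcript start, and they held 147 of the 31131 peaks in the files. The rule used names and positions only. It also took in genes that share a name without sharing the function, such as the effectors of the small GTPase CDC42, and these 33 genes are described apart.

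O4AID ESCs are 129SV mouse embryonic stem cells derived from the ZHBTc4 line (ZHBT in the labels), with the genotype Oct4-/-, a TetOFF Oct4 transgene, and both CAG Oct4AID and CAG Tir1. All cells were grown in N2B27 with the MEK inhibitor PD03, the GSK3 inhibitor Chiron and LIF, and doxycycline was present throughout to keep the wild-type Oct4 transgene silent. The only OCT4 made was therefore the fusion to an auxin-inducible degron, expressed with the TIR1 adaptor from the constitutive CAG promoter. Libraries from 3 immunoprecipitations (IPs) of untreated ("uninduced") cells were compared with 3 from cells given the auxin IAA (indole-3-acetic acid) at 500 µM for 1.5 h. Neither the labels nor the study's methods say that the IPs came from separate cultures, so p-values measure the spread between these IPs. OCT4 protein was not part of these files, and its loss could not be checked here.

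H3K27ac, acetylation of lysine 27 of histone H3, marks active promoters and enhancers, and at a promoter it usually flanks the start site. Replication begins when the origin recognition complex and CDC6 load the MCM2-7 helicase on DNA, and the helicase starts once CDC45 and the GINS complex join it. Cyclins switch on cyclin-dependent kinases (CDKs), CDK inhibitors hold them back, and E2F factors drive many S-phase genes through sites close to the start. Many genes used in G2 and mitosis carry CCAAT boxes with a CHR element instead. Mouse ESCs divide fast. The length of the cell cycle phases and the activity of the CDKs were not part of these files.

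The sequence before the start is shown for 6 member genes, because the groups below differ in these motifs. They were taken from the genes named by the rule given with the processing. Each is the strongest of these in its role with an E2F site, or a CCAAT box together with a CHR element. Windows with more than a short stretch of annotated untranslated exon were left out, and not every role is shown. Each is 250 bases ending at the start, 5′ to 3′ in the direction of the gene, from RefSeq on GRCm38.p6, the C57BL/6J reference and not the 129SV genome of the cells. Capitals mark E2F sites (TTTCCCGC, TTTCGCGC, TTTGCCGC or TTTGGCGC), CCAAT boxes (CCAAT), CHR elements (TTTGAA) and octamers (ATGCAAAT, the word read by POU factors such as OCT4), on either strand.
Mcm2, chr6:88898781-88899030, minus strand: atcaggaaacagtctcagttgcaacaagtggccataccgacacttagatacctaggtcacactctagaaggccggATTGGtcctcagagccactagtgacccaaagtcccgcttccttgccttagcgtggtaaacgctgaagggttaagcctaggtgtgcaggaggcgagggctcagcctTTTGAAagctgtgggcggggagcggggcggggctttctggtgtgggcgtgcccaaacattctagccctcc
E2f3, chr13:29986064-29986313, minus strand: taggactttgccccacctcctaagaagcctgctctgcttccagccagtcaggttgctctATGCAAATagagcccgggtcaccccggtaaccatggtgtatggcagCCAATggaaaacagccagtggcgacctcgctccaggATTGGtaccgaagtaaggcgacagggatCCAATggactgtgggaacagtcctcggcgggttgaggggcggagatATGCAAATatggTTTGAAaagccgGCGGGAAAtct
Cdc45, chr16:18811973-18812222, minus strand: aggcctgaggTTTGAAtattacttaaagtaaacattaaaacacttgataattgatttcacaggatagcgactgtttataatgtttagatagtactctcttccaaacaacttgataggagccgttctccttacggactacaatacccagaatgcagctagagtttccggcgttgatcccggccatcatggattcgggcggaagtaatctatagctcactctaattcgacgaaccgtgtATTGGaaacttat
Cdk1, chr10:69352913-69353162, minus strand: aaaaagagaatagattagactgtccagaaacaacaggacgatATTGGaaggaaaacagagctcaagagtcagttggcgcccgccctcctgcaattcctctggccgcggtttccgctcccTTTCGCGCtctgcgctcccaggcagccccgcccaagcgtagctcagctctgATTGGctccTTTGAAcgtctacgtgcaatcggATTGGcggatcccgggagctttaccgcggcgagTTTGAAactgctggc
Cdc25a, chr9:109875329-109875578, plus strand: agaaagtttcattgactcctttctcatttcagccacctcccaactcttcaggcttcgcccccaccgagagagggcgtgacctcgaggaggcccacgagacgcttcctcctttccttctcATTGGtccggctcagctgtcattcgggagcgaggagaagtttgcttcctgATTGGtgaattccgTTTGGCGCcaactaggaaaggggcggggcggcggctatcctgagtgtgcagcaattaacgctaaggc
Cdk16, chrX:20687704-20687953, plus strand: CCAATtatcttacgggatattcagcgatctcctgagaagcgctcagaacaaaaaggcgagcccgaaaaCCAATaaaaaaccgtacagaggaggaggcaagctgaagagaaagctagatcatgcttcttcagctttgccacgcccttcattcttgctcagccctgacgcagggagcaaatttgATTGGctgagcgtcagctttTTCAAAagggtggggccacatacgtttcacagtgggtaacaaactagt
The Mcm2 and Cdk16 stretches lie wholly outside the H3K27ac peak of the gene, and that of E2f3 shares 5 bases with it. The peak covers 36 bases of the Cdc25a stretch, 124 of Cdk1 and all 250 of Cdc45. E2f3 was the only member promoter with an octamer, and it has a pair of them.

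The promoter table held 125 promoters of 104 member genes, and 22 genes were not matched. An E2F site was present in 18 of these promoters (14.4%), against 2.35% of the promoters of protein-coding genes and 1.86% of all 32851 promoters in the table. CCAAT boxes were found in 44.8% of member promoters and 35.4% of coding promoters, and CHR elements in 16.8% and 14.5%. The octamer was found in 0.8% of member promoters and 1.58% of coding promoters. An E2F site was present in 6 of 12 licensing genes (Cdc6, Mcm5, Mcm6, Mcm7, Orc1 and Orc3) and in 2 of 4 cell cycle CDKs (Cdk1 and Cdk2). No transcriptional CDK, cyclin or APC/C gene in the table had these letters in the window.

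**Figure D1:**
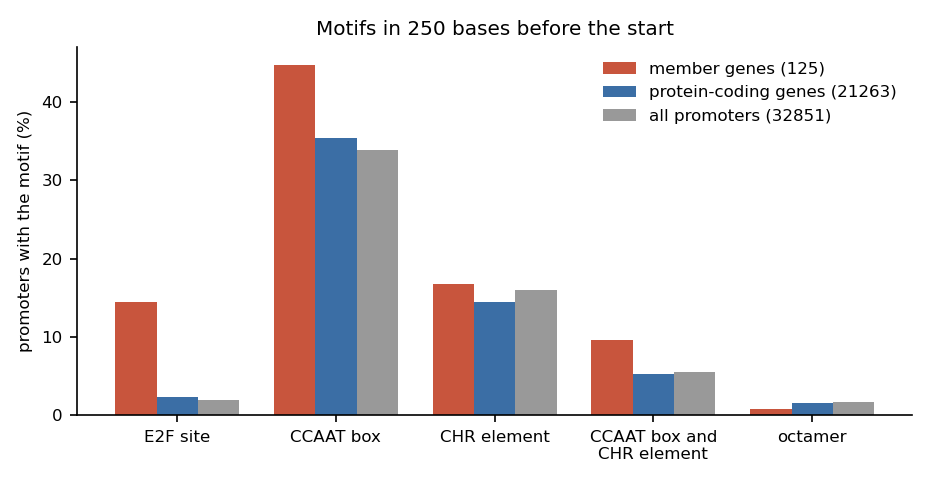
Share of promoters with each motif on either strand in the 250 bases before the start, in percent, for 125 member promoters (red), 21263 promoters of protein-coding genes (blue) and all 32851 promoters of the table (grey). The red bar for the E2F site stands at 14.4% against 2.35% and 1.86%, that for the CCAAT box at 44.8% against 35.4% and 33.8%, and that for the CHR element at 16.8% against 14.5% and 16.0%.

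H3K27ac was measured in RPKM, the reads in a peak scaled to its length in kilobases and to the size of the library. The 6 libraries held 31634480 to 39547452 reads. The median member peak held 104 to 130 reads in the uninduced libraries and 63 to 86 after IAA, so that counting alone gives an error of 8.77% to 12.6%. Over all tested peaks, the uninduced libraries differed by little more than counting. Their chi-square per degree of freedom was 1.02 to 1.15 between pairs, where counting alone gives 1. Between pairs of IAA libraries it was 1.17 to 1.64, so the spread between IPs was unequal in the 2 conditions. The peaks were called on pooled uninduced reads, which favours the uninduced state. The share of reads in peaks was 6.63% to 7.12% in uninduced libraries and 4.05% to 5.15% after IAA. Because RPKM divides by all reads, such a shift moves all peaks together, and each change is therefore also given relative to the median peak.

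H3K27ac was lower after IAA at the cell cycle promoters, by about as much as at other promoters. The median member peak stood at 3.52, 3.71 and 3.21 RPKM in the uninduced libraries and at 2.60, 2.3 and 2.13 RPKM in the IAA libraries. The groups did not overlap, and IAA replicate 3 was the lowest. The median log2 change over the 147 peaks was -0.54 (quartiles -0.64 and -0.42), beside -0.53 over the promoter peaks of other protein-coding genes and -0.55 over all 26457 peaks tested. All 147 estimates were negative, from -1.13 to -0.18.

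**Figure D2:**
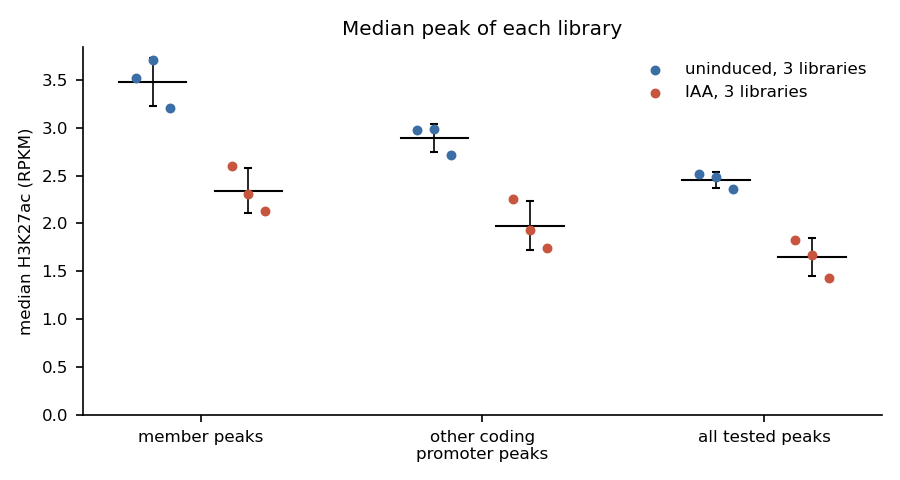
Median H3K27ac in RPKM of each library (points), with mean and SD over 3 libraries (black), for the member peaks, the promoter peaks of other protein-coding genes and all tested peaks. In each set the 3 IAA libraries (red) sit below the 3 uninduced libraries (blue), and member peaks are the highest set in both conditions.

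By limma with Benjamini-Hochberg adjustment, 110 of the 147 member peaks (74.8%) were lower after IAA at an adjusted p under 0.05. The same call was made at 71.1% of promoter peaks of other protein-coding genes and 68.2% of all peaks. The 110 peaks belonged to 88 genes, and 21 member genes with a peak had none that was called. No member peak was higher by the adjusted test, where the background was 0.0% of other coding promoter peaks and 0.0605% of all peaks. At an unadjusted p under 0.05 there was again no member peak, beside 1 other coding promoter peak and 24 of all peaks (0.0907%). At 115 member peaks (78.2%) the highest IAA value was under the lowest uninduced value, as they did at 72.2% of other coding promoter peaks and 71.2% of all peaks. The number called rested on uninduced replicate 1, without which 61 member peaks were called, beside 39.2% of all peaks.

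After centring on the library's median peak, no member peak was called in either direction by limma. The unadjusted p was under 0.05 at 6 member peaks with a negative value (4.08%) and 1 with a positive value (0.68%), beside 4.92% and 4.1% of other coding promoter peaks and 8.83% and 5.41% of all peaks. By the adjusted test 0.942% of other coding promoter peaks were lower and 0.206% were higher, and of all peaks 1.97% were lower and 0.544% were higher. The median relative change over member peaks was 0.016, with 77 peaks above 0 and 70 below. Within each library, the median log2 level of member peaks stood above that of other coding promoter peaks by 0.257 ± 0.041 (SD, n = 3 IPs) in uninduced cells and by 0.238 ± 0.036 (SD, n = 3) after IAA. The difference of -0.019 was smaller than the spread between IPs. Without the genes of other functions it was -0.048, larger than the spread of 0.039 (SD) over all members. This was not tested.

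**Figure D3:**
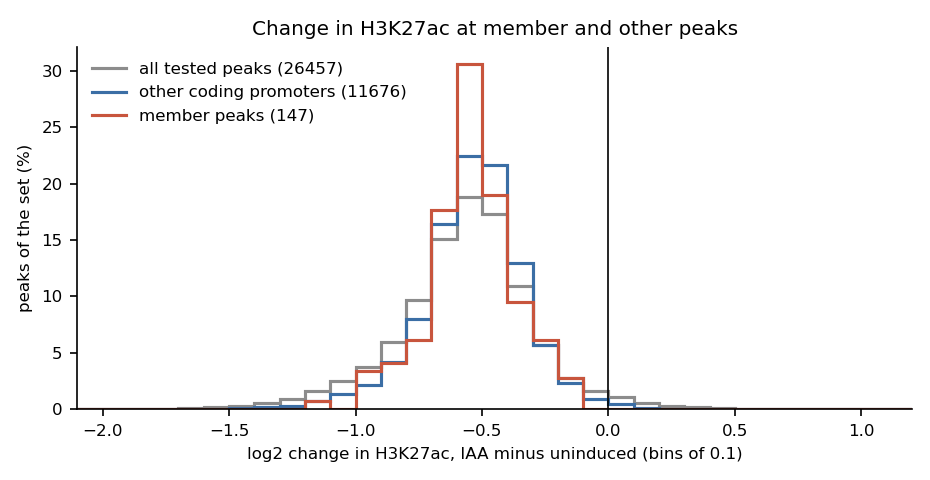
Share of peaks (%) by log2 change in H3K27ac, IAA minus uninduced, in bins of 0.1, for 147 member peaks (red), 11676 promoter peaks of other protein-coding genes (blue) and all 26457 tested peaks (grey). All 3 outlines are highest in the bin from -0.6 to -0.5, and the red outline lies wholly to the left of 0.

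The counts of each role and gene list below stand beside 71.1% of other coding promoter peaks and 68.2% of all peaks called lower. Without uninduced replicate 1 or 2 the share of all peaks was 39.2% or 46.5%. Origin licensing genes, which load the helicase, were lower at every peak. All 13 genes had a peak, and all 14 of their peaks were lower after IAA (limma, adjusted p under 0.05), with log2 changes between -0.69 and -0.44. Mcm2, a subunit of the MCM2-7 helicase, had the highest level of the group. Its peak (chromosome 6, 88898068 to 88898765, over a UTR) stood at 7.47, 7.08 and 6.41 RPKM in the uninduced libraries and 5.72, 4.53 and 3.44 RPKM after IAA (log2 change -0.63 ± 0.17 SE, adjusted p = 0.00629). The groups did not overlap, with the widest spread on the IAA side. Mcm6, another helicase subunit, had the largest fall among the strongest peaks of the group, from 6.65, 6.31 and 5.38 RPKM to 4.62, 3.64 and 3.19 RPKM (log2 change -0.68 ± 0.16 SE, adjusted p = 0.00346). The 2 peaks of Orc4 had log2 changes of -0.69 and -0.52. Mcm3 had the smallest fall, from 2.94, 3.71 and 3.60 RPKM to 2.43, 2.46 and 2.56 RPKM (log2 change -0.44 ± 0.16 SE, adjusted p = 0.0249). Its 3 IAA values lay close together and under the lowest uninduced value. The call for Mcm3 was lost without uninduced replicate 2 (adjusted p = 0.116), uninduced replicate 3 (0.0893) or IAA replicate 2 (0.057), and 9 of the 14 peaks were called without uninduced replicate 1.

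Origin firing genes turn the loaded helicase into a moving fork. Of their 9 peaks, 8 were lower, and each of the 7 genes had at least 1 such peak. Cdc45, a part of the active helicase, had the highest level, at 6.06, 5.67 and 6.10 RPKM in uninduced cells and 4.56, 4.86 and 3.24 RPKM after IAA (log2 change -0.51 ± 0.16 SE, adjusted p = 0.0146). Its peak (chromosome 16, 18811183 to 18812939) also lies within 1 kb of the start of Ufd1, so its level cannot be ascribed to Cdc45 alone. Gins3, a GINS subunit, fell most, from 2.41, 2.38 and 2.19 RPKM to 1.49, 1.41 and 1.10 RPKM (log2 change -0.77 ± 0.19 SE, adjusted p = 0.00403). Neither gene's groups overlapped. Without IAA replicate 3 the log2 change of Cdc45 was -0.33. Without uninduced replicate 1 the call for Cdc45 was lost (adjusted p = 0.0562) and 4 of the 9 peaks were called, and without uninduced replicate 2 there were 5.

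The polymerases, the sliding clamp and its loader copy the DNA. Of their 16 peaks 12 were lower, and 11 of the 15 genes with a peak had such a peak. Rfc2, a clamp loader subunit, had the largest fall at its strongest peak. Its peak (chromosome 5, 134582669 to 134583602) stood at 4.23, 3.52 and 3.21 RPKM before and 2.36, 1.84 and 1.55 RPKM after IAA (log2 change -0.91 ± 0.18 SE, adjusted p = 0.00109), so that 52.4% of the mean level was left. Pola1, the catalytic subunit of the priming polymerase, had a log2 change of -0.89 (adjusted p = 0.00138), and Pole2 -0.84 (adjusted p = 0.0012). Pcna, the clamp, stood at 4.28, 4.44 and 4.06 RPKM and then at 3.31, 2.77 and 2.64 RPKM (log2 change -0.54 ± 0.16 SE, adjusted p = 0.00851), close to the median change of the members. Not every gene of the group was called, and differences between the genes were not tested. Pole, the catalytic subunit of the leading-strand polymerase, stood at 3.23, 3.10 and 2.50 RPKM and at 2.70, 2.06 and 2.27 RPKM, and these overlapped (log2 change -0.32 ± 0.17 SE, adjusted p = 0.106). Pole3, which had the highest level of the group, was at 6.92, 6.43 and 6.61 RPKM and at 5.97, 5.92 and 3.54 RPKM, with IAA replicate 3 far below the other IAA libraries (log2 change -0.40 ± 0.18 SE, adjusted p = 0.0513). Leaving out IAA replicate 1 put Pole (adjusted p = 0.0424) and Pole3 (0.0151) past the threshold, and so did leaving out IAA replicate 2 for Pole3 (0.0356). Without IAA replicate 3 the log2 change of Pole3 was -0.16 (adjusted p = 0.194). Without uninduced replicate 1, 7 of the 16 peaks were called.

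Cyclins had peaks at 6 of 10 genes, and 8 of the 10 peaks were lower, with at least 1 in each gene. Ccne1, the cyclin E gene that partners CDK2 at S-phase entry, fell most. Its strongest peak (chromosome 7, 38107804 to 38108548) lies 270 bp from the start and outside the gene. It stood at 4.69, 4.46 and 4.41 RPKM in uninduced cells and 3.11, 2.61 and 1.86 RPKM after IAA (log2 change -0.84 ± 0.18 SE, adjusted p = 0.00147). Ccnb1, the mitotic cyclin B1 gene, fell least among the strongest peaks and had the highest level, with 5.64, 5.69 and 5.43 RPKM before and 5.06, 3.89 and 3.25 RPKM after IAA (log2 change -0.47 ± 0.17 SE, adjusted p = 0.0204). The groups did not overlap for either gene. The 3 peaks of Ccne2 had log2 changes from -0.53 to -0.45, and 1 of them was called lower. Relative to the median peak, Ccne1 stood at -0.29 ± 0.12 SE (adjusted p = 0.283) and Ccnb1 at 0.08 ± 0.10 SE (adjusted p = 0.798). The call for Ccnb1 was lost without uninduced replicate 1 (adjusted p = 0.0674), uninduced replicate 2 (0.0659) or IAA replicate 2 (0.0539), and 5 of the 10 peaks were called without uninduced replicate 1. Of the cyclin D genes, the growth factor-responsive partners of CDK4 and CDK6, Ccnd3 had 3 peaks and all were lower. Ccnd1 and Ccnd2 had no peak within 1 kb. The peak nearest to Ccnd1, 1220 bp from its start (chromosome 7, 144941145 to 144941568), had 1.97 ± 0.613 RPKM before IAA and 1.54 ± 0.289 RPKM with it (SD, n = 3 each, log2 change -0.30 ± 0.23 SE, adjusted p = 0.23).

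The 4 cell cycle CDKs had 7 peaks, 6 of them lower, and the most negative median log2 change of the 12 roles, -0.67. Cdk6 alone held 3 of these peaks, and the median was the value of 1 of them. Cdk1, the kinase of mitosis, had 5.60, 5.98 and 5.13 RPKM in uninduced cells and 4.09, 3.38 and 2.86 RPKM after IAA (log2 change -0.69 ± 0.16 SE, adjusted p = 0.00289). Cdk2, the S-phase kinase, went from 4.70, 3.94 and 4.23 RPKM to 3.46, 2.51 and 2.69 RPKM (log2 change -0.57 ± 0.17 SE, adjusted p = 0.00888). This peak also lies within 1 kb of the start of Pmel. The other Cdk2 peak had a log2 change of -0.27 and was not called. Cdk4, a partner of D cyclins, fell least among the strongest peaks, from 5.49, 5.71 and 5.32 RPKM to 4.73, 3.51 and 3.28 RPKM (log2 change -0.53 ± 0.16 SE, adjusted p = 0.0112). Cdk6, its close relative, fell most, from 3.07, 4.48 and 2.46 RPKM to 1.96, 1.80 and 1.28 RPKM (log2 change -0.93 ± 0.21 SE, adjusted p = 0.00251). No groups overlapped at the strongest peaks of these 4 genes, and uninduced replicate 2 was high at Cdk6. The Cdk6 peak lies in an intron, 521 bp from the nearest start, and all 3 Cdk6 peaks were lower. Relative to the median peak, Cdk6 stood at -0.37 ± 0.18 SE (adjusted p = 0.393). The call for Cdk2 was lost without uninduced replicate 1 (adjusted p = 0.0548).

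**Figure D4:**
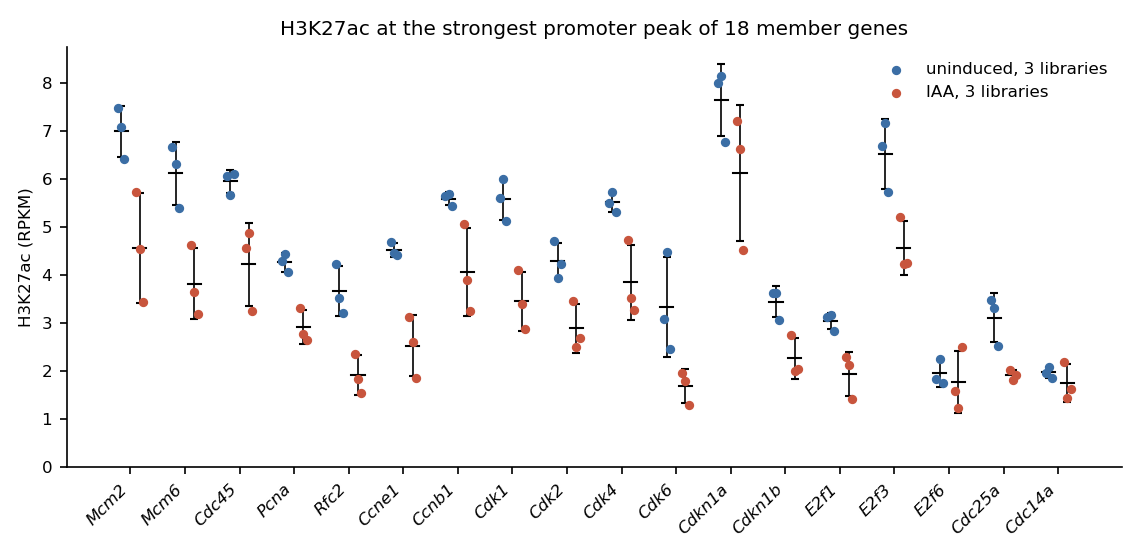
H3K27ac in RPKM at the strongest promoter peak of 18 member genes, with each library as a point (blue, uninduced; red, IAA) and the mean and SD over 3 libraries in black. The red points lie below the blue at Mcm2, Rfc2, Ccne1 and Cdk1, for example, and overlap with them at Cdkn1a, E2f6 and Cdc14a.

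The other kinases divided into transcriptional CDKs and a mixed group. Transcriptional CDKs act on RNA polymerase II, and all 7 genes had a lower peak, with 10 of 11 peaks called. Cdk7, the kinase of TFIIH that also activates other CDKs, fell most, from 6.07, 6.32 and 5.80 RPKM to 4.02, 4.37 and 3.49 RPKM (log2 change -0.61 ± 0.15 SE, adjusted p = 0.00384). Cdk12, an elongation kinase, had the highest level and, among the strongest peaks of the genes, the smallest fall, from 7.86, 6.99 and 6.31 RPKM to 6.04, 5.35 and 4.62 RPKM (log2 change -0.40 ± 0.15 SE, adjusted p = 0.0299). Values did not overlap at either gene. The 3 peaks of Cdk13 had log2 changes from -0.58 to -0.30, and 2 of them were called lower. The Cdk12 call was lost without uninduced replicate 1 (adjusted p = 0.154), uninduced replicate 2 (0.0864), IAA replicate 2 (0.0655) or IAA replicate 3 (0.0533), and 3 of the 11 peaks were called without uninduced replicate 1 and 4 without uninduced replicate 2. In the mixed group 4 of 7 peaks were lower. Cdk20 fell from 2.50, 3.12 and 2.86 RPKM to 1.67, 1.91 and 1.34 RPKM (log2 change -0.76 ± 0.19 SE, adjusted p = 0.00355), and Cdk10 had a log2 change of -0.71 (adjusted p = 0.00537). Cdk16 stood at 2.59, 2.28 and 2.18 RPKM and at 2.25, 1.75 and 1.73 RPKM, and the groups overlapped (log2 change -0.29 ± 0.18 SE, adjusted p = 0.145).

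CDK inhibitors had peaks at 7 of 8 genes, and 7 of 11 peaks were lower. Cdkn1a, which encodes p21 and is a target of p53, had the highest uninduced level of any member. Its strongest peak (chromosome 17, 29094002 to 29095471) lies 221 bp from the nearest start. It stood at 7.99, 8.13 and 6.77 RPKM in uninduced cells and 7.20, 6.62 and 4.52 RPKM after IAA, and the groups overlapped (log2 change -0.34 ± 0.17 SE, adjusted p = 0.0795). Its other peak (chromosome 17, 29090500 to 29092476) holds a start and was lower, at 6.97, 6.45 and 7.29 RPKM and then 4.79, 5.22 and 4.21 RPKM, with no overlap (log2 change -0.54, adjusted p = 0.00678). Cdkn1b, which encodes p27, fell from 3.62, 3.63 and 3.07 RPKM to 2.75, 1.99 and 2.04 RPKM (log2 change -0.59 ± 0.17 SE, adjusted p = 0.00873). The INK4 genes Cdkn2b, Cdkn2c and Cdkn2d, inhibitors of CDK4 and CDK6, had log2 changes of -0.56, -0.59 and -0.58 at their strongest peaks, with adjusted p of 0.016, 0.0211 and 0.00743. Cdkn2a, which encodes the INK4 protein p16 and ARF, had -0.41 at its strongest peak (adjusted p = 0.0447) and -0.42 at its other peak (adjusted p = 0.142), and the other Cdkn2c peak had -0.30 (adjusted p = 0.161). Cdkn1c had no peak within 1 kb. Without IAA replicate 1 the strongest Cdkn1a peak passed the threshold (adjusted p = 0.0178), without IAA replicate 3 its log2 change was -0.14 (adjusted p = 0.303), and without uninduced replicate 1 the group had 3 peaks called.

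Of the 9 peaks of E2F factors 5 were lower, and 4 of the 7 genes with a peak held such a peak. Differences between these genes were not tested. Of the activators, E2f1 and E2f3 fell and E2f2 was not called, with log2 changes of -0.42 (adjusted p = 0.0798) and -0.22 (adjusted p = 0.367) at its 2 peaks. E2f1 stood at 3.12, 3.16 and 2.84 RPKM in uninduced cells and 2.29, 2.12 and 1.42 RPKM after IAA (log2 change -0.65 ± 0.19 SE, adjusted p = 0.00868). E2f3, whose promoter carries the octamer pair shown above, was the strongest of the group at 6.67, 7.17 and 5.72 RPKM and then 5.21, 4.22 and 4.25 RPKM (log2 change -0.51 ± 0.15 SE, adjusted p = 0.0108). Its change relative to the median peak was 0.05 ± 0.10 SE (adjusted p = 0.901). Among the strongest peaks of the genes, that of the repressor E2f7 fell most, from 2.41, 2.45 and 2.61 RPKM to 1.57, 1.26 and 1.43 RPKM (log2 change -0.77 ± 0.18 SE, adjusted p = 0.00299). Values did not overlap at the strongest peaks of E2f1, E2f3 and E2f7. The other E2f1 peak fell further (log2 change -0.87) and was also called lower. E2f6, a repressor that works without the RB proteins, overlapped between conditions, at 1.84, 2.26 and 1.74 RPKM and at 1.58, 1.23 and 2.49 RPKM, where IAA replicate 3 held the highest value of all (log2 change -0.18 ± 0.23 SE, adjusted p = 0.459). The E2f6 estimate was 0.04 without IAA replicate 2 (adjusted p = 0.888), -0.44 without IAA replicate 3 (adjusted p = 0.0706) and -0.073 without uninduced replicate 2 (adjusted p = 0.796). The E2f3 call was lost without uninduced replicate 1 (adjusted p = 0.0513) or 2 (0.0672), and 3 of the 9 peaks were called without either of these libraries.

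The phosphatases CDC25 and CDC14, which reverse inhibitory or mitotic phosphorylation, had the least negative median change of the roles, -0.42, and 2 of 5 peaks lower. Cdc25a, an activator of CDK2, had 3.48, 3.32 and 2.53 RPKM in uninduced cells and 2.03, 1.80 and 1.91 RPKM after IAA, with no overlap (log2 change -0.66 ± 0.18 SE, adjusted p = 0.00556). Cdc14b fell from 2.08, 2.71 and 2.06 RPKM to 1.93, 1.22 and 1.07 RPKM (log2 change -0.69 ± 0.22 SE, adjusted p = 0.013), and Cdc14a stood at 1.96, 2.09 and 1.86 RPKM and at 2.19, 1.43 and 1.62 RPKM (log2 change -0.18 ± 0.20 SE, adjusted p = 0.387). At Cdc14a, IAA replicate 1 was above every uninduced library, and the log2 change was -0.35 without it and -0.06 without IAA replicate 2 (adjusted p = 0.113 and 0.803). The Cdc14b call was lost without uninduced replicate 2 (adjusted p = 0.0634) or IAA replicate 3 (0.0505), each of which left 1 peak of the group called. Levels in this group were low, with a median of 1.97 RPKM against 4.76 RPKM for the licensing genes in uninduced cells.

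The anaphase-promoting complex (APC/C) and related ubiquitin ligase genes, which trigger the destruction of cyclins, had 8 of 9 peaks lower. Cdc27, an APC/C subunit, fell from 6.89, 6.69 and 6.18 RPKM to 4.52, 3.89 and 3.93 RPKM (log2 change -0.67 ± 0.15 SE, adjusted p = 0.00196), and its peak is also within 1 kb of a start of Myl4. Cdc34, a ubiquitin-conjugating enzyme, fell from 6.50, 7.16 and 6.11 RPKM to 5.14, 4.02 and 4.0 RPKM (log2 change -0.58 ± 0.15 SE, adjusted p = 0.00548). Cdc16 was low, at 1.42, 1.57 and 1.41 RPKM and at 1.11, 1.27 and 1.22 RPKM (log2 change -0.27 ± 0.21 SE, adjusted p = 0.233). No overlap was seen at any of the 3 genes. Without uninduced replicate 1 there were 3 peaks called, and without uninduced replicate 2 there were 5.

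The 33 genes of other functions had 39 peaks at 27 genes, 26 of them lower. Poldip2, whose product binds a polymerase delta subunit, fell most at its strongest peak, from 5.47, 5.27 and 5.10 RPKM to 3.36, 2.89 and 2.11 RPKM (log2 change -0.92 ± 0.17 SE, adjusted p = 0.000606), and this peak is also within 1 kb of a start of Tmem199. Cdc42, a small GTPase of cell polarity, overlapped between conditions, at 3.31, 2.59 and 2.58 RPKM and at 1.88, 1.99 and 3.85 RPKM (log2 change -0.20 ± 0.22 SE, adjusted p = 0.405). IAA replicate 3 was the highest of the 6 values, and the log2 change was -0.52 without it (adjusted p = 0.0194), -0.019 without IAA replicate 1, -0.058 without IAA replicate 2 and -0.084 without uninduced replicate 1 (adjusted p = 0.94, 0.827 and 0.764). The group had 14 peaks called without uninduced replicate 1 and 16 without uninduced replicate 2.

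**Figure D5:**
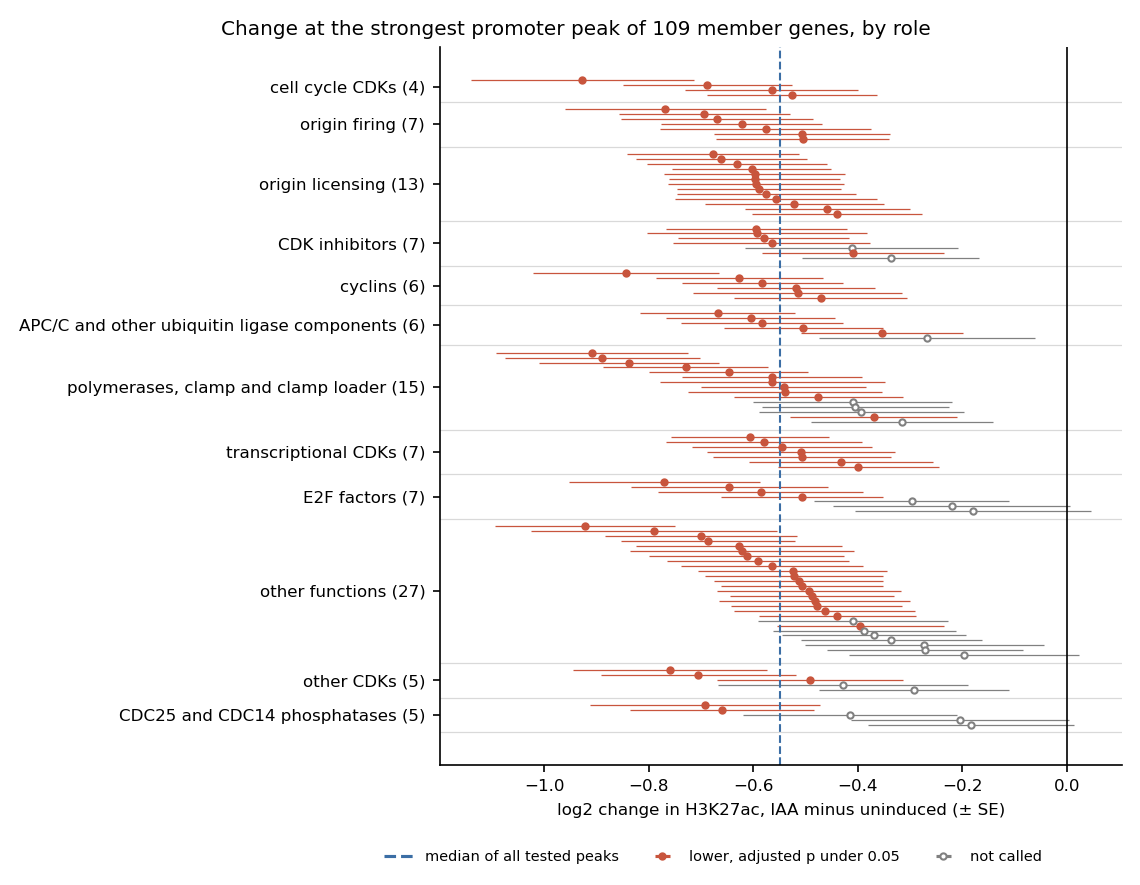
Log2 change in H3K27ac, IAA minus uninduced, with its SE (horizontal bars) at the strongest promoter peak of each of the 109 genes with a peak, grouped by role with the number of genes in brackets and ordered by the role's median. Red points passed limma's adjusted p of 0.05, open grey points did not, and the dashed blue line marks the median of all tested peaks, -0.55; every point is left of 0 (black line).

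The changes were set beside the motifs. Among the 92 member genes in both the promoter table and the peak set, the 17 with an E2F site had a median log2 change of -0.60 and 15 were lower, and the 75 without had a median of -0.52 and 59 were lower. For CHR elements the medians were -0.48 in 19 genes with one and -0.56 in 73 without. Lower was called at 71.1% of other coding promoter peaks and 68.2% of all peaks. The differences between genes with and without a motif are descriptions and were not tested. In the 300 bases at the centre of the peaks, an E2F site was present in 10.2% of member peaks and 3.37% of other coding promoter peaks. The octamer was present in 0 of 147 member peak centres, which allows a share of up to 2.04%, in 0.754% of other coding promoter peaks and in 2.62% of peaks with an OCT4 mark.

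OCT4-marked peaks, those the authors placed within 1 kb of a published OCT4 peak, were few among the members. The mark was on 6 of 147 member peaks (4.08%), against 8.08% of other coding promoter peaks and 17.6% of all peaks. All 6 were lower, with a median log2 change of -0.56, beside 104 lower and a median of -0.54 for the 141 without the mark. Of other coding promoter peaks 71.1% were lower, and of all peaks 68.2%. The 6 were the peaks of Cdk12 and Mcm10 at the start, a pair at Poldip3, 1 of 3 at Cdc42se1 and 1 of 2 at Pole4.

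Pole4, an accessory subunit of DNA polymerase epsilon, held the peak that came closest to a call relative to the median peak. That peak (chromosome 6, 82704187 to 82704909) carries the OCT4 mark and lies in an intron, 456 bp from the start of a non-coding transcript of the gene and 51258 bp from the nearest start of a protein-coding one. It stood at 5.95, 6.17 and 6.08 RPKM in uninduced cells and 3.69, 2.88 and 2.80 RPKM after IAA (log2 change -0.95 ± 0.16 SE, adjusted p = 0.000242). The groups lay well apart, and this was the smallest adjusted p of any member peak. Relative to the median peak the change was -0.39 ± 0.10 SE (adjusted p = 0.0604). It passed the threshold with a pseudocount of 0.5 (adjusted p = 0.0316), with no threshold on RPKM (0.025) and without IAA replicate 3 (0.049). The peak over the coding start of Pole4 (chromosome 6, 82652195 to 82653492) has no mark. It stood at 6.61, 6.39 and 6.39 RPKM and then 4.70, 4.06 and 3.58 RPKM (log2 change -0.65 ± 0.15 SE, adjusted p = 0.00281), and its relative change was -0.09 ± 0.09 SE (adjusted p = 0.709).

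Poldip3 showed the largest spread within a gene, and it also holds the largest fall of any member peak. Both of its peaks carry the OCT4 mark. The upstream peak (chromosome 15, 83150054 to 83150331), 670 bp from the start, stood at 2.46, 2.85 and 3.82 RPKM in uninduced cells and 1.27, 1.70 and 1.04 RPKM after IAA (log2 change -1.13 ± 0.21 SE, adjusted p = 0.000582). Its relative change was -0.58 ± 0.20 SE (adjusted p = 0.18). The peak over the start (chromosome 15, 83148189 to 83149764) stood at 5.67, 5.60 and 5.10 RPKM and then 4.22, 3.98 and 3.28 RPKM (log2 change -0.51 ± 0.15 SE, adjusted p = 0.0107), a call that was lost without uninduced replicate 1 (adjusted p = 0.0547). The difference between these peaks was not tested. Mcm10, a replisome factor, had 3.08, 3.25 and 2.61 RPKM and then 2.05, 1.99 and 2.14 RPKM (log2 change -0.51 ± 0.17 SE, adjusted p = 0.0157), and this call was lost without uninduced replicate 1 (adjusted p = 0.069) or 2 (0.0811).

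Member peaks differed in place and composition. The counts of lower peaks here stand beside 71.1% of other coding promoter peaks and 68.2% of all peaks. A start lay inside 98 peaks, of which 81 were lower (median log2 change -0.56), and beside 49 peaks, of which 29 were lower (median -0.49). Of the 147 peaks, 104 overlapped a UTR, 9 a coding exon but no UTR, 13 an intron only and 21 lay outside the gene. Peak centres lay downstream of the start in 91 cases and upstream in 56. A start of another protein-coding gene lay within 1 kb of 29 member peaks (19.7%), against 12.8% of other coding promoter peaks, and 23 of the 29 were lower. The 32 genes with several peaks comprised 17 with every peak called lower, 10 with a mixture and 5 with none, and the median spread of the log2 change within a gene was 0.203. The median peak was 864 bp long with a GC content of 56.8%, against 820 bp and 57.7% for other coding promoter peaks. Across the 147 peaks, Spearman's rho of GC content with the log2 change was 0.166, and it was 0.132 across other coding promoter peaks. These peaks share libraries and are not independent.

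No peak lay within 1 kb of 17 member genes: Ccna1, Ccnb3, Ccnd1, Ccnd2, Cdc20b, Cdc34b, Cdc42ep1, Cdc42ep2, Cdc42ep3, Cdk14, Cdk15, Cdk18, Cdk5r1, Cdk5r2, Cdkn1c, E2f8 and Pold4. Among them are the germline cyclin Ccna1 and the neuronal CDK5 activators Cdk5r1 and Cdk5r2. Peaks were called in uninduced cells only, so a peak gained after IAA would not be listed.

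A further 76 cell cycle genes outside the naming rule, among them the licensing factor Cdt1, nucleotide synthesis genes, RB family genes, APC/C subunits and mitotic kinases, gave a similar picture. A peak was found for 75 of them, all but Tfdp1. Of their 98 peaks, 85 were lower and 0 were higher by limma, with a median log2 change of -0.56. The same call of lower was made at 71.1% of promoter peaks of other protein-coding genes and 68.2% of all peaks. Trp53, which encodes the p53 tumour suppressor, fell most, from 7.46, 6.48 and 6.47 RPKM to 3.01, 2.87 and 3.15 RPKM (log2 change -1.15 ± 0.15 SE, adjusted p = 3.86e-05). It was also the only 1 of the 98 peaks lower relative to the median peak (-0.60, adjusted p = 0.0204), and it carries the OCT4 mark. That relative call was made at 0.942% of other coding promoter peaks and 1.97% of all peaks, so 1 peak is near the background. Dut and Clspn followed with log2 changes of -0.95 and -0.85 (adjusted p = 0.000734 and 0.00246). The smallest changes were at Lin54 (-0.11, adjusted p = 0.657), Atr (-0.27, adjusted p = 0.191) and Anapc13 (-0.31, adjusted p = 0.0739). Without uninduced replicate 1, 46 of the 98 peaks were called, beside 39.2% of all peaks.

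The cells carried the marks of naive ESCs, with peaks at 9 of 10 naive markers (all but Dppa3). Of these 17 peaks, 16 were lower and the median log2 change was -1.04. Relative to the median peak 9 were lower and 1 was higher, where no member peak was called. Of all peaks, 1.97% were lower and 0.544% were higher by that test. The higher peak was at Pou5f1 (0.30, adjusted p = 0.027), and it was not called as deposited (-0.25, adjusted p = 0.0877). The cells also carry Oct4 transgenes, and reads from these and from the endogenous locus were not told apart. Summed over all 17 peaks, the level was 125 to 135 RPKM in uninduced libraries and 59.4 to 80.2 RPKM after IAA. Of 12 trophoblast and differentiation markers, 10 had no peak, among them Cdx2 and Eomes, and 2 of the 3 peaks of the others were lower.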

How the data were processed

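The data were 6 H3K27ac ChIP-seq libraries of O4AID ESCs, 3 uninduced and 3 given 500 µM IAA for 1.5 h. Groups and replicate numbers came from the sample labels. The authors aligned the reads to GRCm38 (mm10) with Bowtie2 2.3.4.3, removed duplicates, called peaks with MACS2 on the pooled uninduced reads and deposited RPKM values from DiffBind for each library and condition. MACS2 and DiffBind versions are not given in the sources used here. Each pooled column was the mean of its 3 libraries. The paper names the antibody ab4729 and the labels ab4792.

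Peaks with a pooled RPKM of at least 0.5 in either condition were tested on log2(RPKM + 0.1) (changes of low peaks are understated on this scale) with limma 3.58.1 in R 4.3.3 (lmFit, eBayes with trend and robust), Benjamini-Hochberg adjustment over all 26457 peaks and a threshold of 0.05. The deposited RPKM values were whole multiples of 1 read (within 0.01) at 100% of entries, which gave the library sizes. No count test of the recovered reads was run. The fit was tested on simulated data.

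Transcript starts came from GENCODE vM21, promoters from RefSeq (GRCm38.p6). In each role, the genes named were those with the highest level, the largest fall and the smallest fall at the strongest peak, besides OCT4-marked members and 9 genes chosen by name (Ccnd1, Ccne1, Cdk1, Cdk2, Cdkn1a, Mcm2, Pcna, E2f1 and Cdc25a); other genes were added after their values were seen. The members and gene lists were chosen with earlier results of these data known. Same-numbered replicates did not deviate together (correlations -0.0143, -0.091 and -0.0614), so no pairing was used.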

Additional observations from a re-analysis of the deposited data

How the results depend on the processing

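Of 147 member peaks, the count lower stayed within 1.5 times of 110 under both pseudocounts and both RPKM thresholds. It also did so with limma without trend and robust, and centred on peaks below the threshold. Other rules changed the set of peaks, and 81 of 98 holding a start and 116 of 155 within 2 kb were lower. So were 106 of 139 with protein-coding transcripts only, 87 of 109 with 1 peak per gene and 84 of 108 without the genes of other functions. Leaving out each library gave 61 (without uninduced replicate 1) to 124. Centred on the median peak above the threshold or quantile normalized, 0 member peaks were lower, and 1 peak of the other cell cycle genes was, against 85 as deposited and 46 to 91 without each library. The change of the libraries' median over member peaks, -0.55 as deposited, was then 0.00106 (centred) and 0.0311 (quantile); this is a difference of medians, not the median of the peaks' changes. Both scales set the median of all tested peaks equal in every library. The count called relative to the median peak was 1, a Pole4 peak, with a pseudocount of 0.5 or no RPKM threshold, and 0 to 1 without each library. The change in the gap between member and other coding promoter peaks lay from -0.036 to 0.005 without each library. It was -0.048 without the genes of other functions and -0.047 for peaks holding a start. Both exceed the spread between IPs of 0.039 (SD, all members). With starts within 2 kb it was -0.030, and with 1 peak per gene or protein-coding transcripts only it was -0.033. With the replicate number as a block, 117 member peaks were lower, 0 were higher, 0 changed relative to the median peak and 88 peaks of the other cell cycle genes were lower. The numbers do not pair the samples, and of 39 named genes only Pole3 and Cdkn1a gained a call under the block.

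Of 31 named genes called lower, none was called on the centred or quantile scale. On the centred scale 19 of the 39 named genes had values above 0: Mcm3 0.114, Cdc45 0.0479, Pole3 0.149, Pole 0.238, Ccnb1 0.0822, Cdk4 0.0271, Cdk12 0.154, Cdk16 0.261, Cdkn1a 0.216, E2f3 0.0466, E2f6 0.374, Cdc14a 0.37, Cdc16 0.286, Cdc42se2 0.0404, Cdc42 0.356, Poldip3 0.0466, Cdc42se1 0.158, Mcm10 0.0471 and Pcna 0.0115. Under quantile normalization 20 did: Mcm3 0.142, Cdc45 0.0516, Pole3 0.126, Pole 0.259, Ccnb1 0.0921, Cdk4 0.0396, Cdk12 0.116, Cdk16 0.268, Cdkn1a 0.165, E2f3 0.0361, E2f6 0.38, Cdc14a 0.371, Cdc16 0.334, Cdc42se2 0.031, Cdc42 0.367, Poldip3 0.0637, Cdc42se1 0.175, Mcm10 0.0662, Cdk2 0.0239 and Pcna 0.0434. Without IAA replicate 3 the E2f6 change was -0.443, and leaving out IAA replicate 2 instead gave 0.0358. Depth limits single peaks, with a counting error of 8.77% to 12.6% at the median member peak.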
